A study of Sus scrofa with 20 samples.

Results

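The 100 most abundant sequence tags of pig longissimus muscle took 7.45% to 40.2% of the clean tags of a library. They were chosen by their mean TPM, tags per 1000000 clean tags, over 18 libraries, and they were 100 of 775218 distinct tags found in those libraries. Longissimus muscle of purebred Landrace (LR) and Lantang (LT) pigs had been collected at 10 stages, 35, 49, 63, 77 and 91 days post coitus (dpc) and 2, 28, 90, 120 and 180 days post natum (dpn). The animals were male in both breeds and at every stage, and per the study's methods boars were castrated after 2 weeks, so that castration cannot be told apart from age from 28 dpn on. Each of the 20 libraries was made from the mixed RNA of 3 animals of 1 breed and stage, and the animals of a pool could not be told apart. In digital gene expression (DGE) profiling, the enzyme NlaIII cuts cDNA that is held on beads by its poly(A) tail, and CATG and the next 17 bases are read. Each tag therefore marks a CATG site, ideally the last one before the poly(A) tail, and a TPM value needs no division by transcript length. Per the study, alternative splicing or incomplete cutting can also give a tag from a site further upstream. LR 120 dpn and LR 180 dpn were not used for the ranking, because these libraries stood apart from the rest. Library totals were 2157111 to 5322022 clean tags, at which 3 counts stood for 0.564 to 1.39 TPM. Intervals and this floor cover counting error only. Tags were not matched to transcripts here, so that no tag is given a gene name or a position in the genome, and the tissue label was not checked against marker genes.

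Pig muscle fibres form before birth, first as primary and then as secondary fibres around them, and after birth they grow without much further increase in number. During this growth the mRNA of a muscle becomes dominated by a small number of very abundant transcripts, chiefly for contractile proteins and for enzymes of energy supply. Several contractile proteins exist in developmental and adult forms made from separate genes, and the former give way to the latter around birth. Closely related genes can have similar sequences at the same place in the transcript, and a tag that differs by 1 base can also come from an allele or from an error in copying or reading.

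The 10 tags of highest mean TPM are printed first because they carried most of the rise in the share of the 100 tags from the prenatal to the postnatal libraries. Each is given 5′ to 3′ as deposited, and capitals mark AATAAA, the sequence that most often signals the addition of the poly(A) tail.
Rank 1: catgtaccatcAATAAAgtac
Rank 2: catgaagatcaagatcatcgc
Rank 3: catgagcaaaaattcactttg
Rank 4: catgcagaaggagatcaccgc
Rank 5: catgaagtgcgacatcgatat
Rank 6: catgtggaacgagcacctggg
Rank 7: catgcttttctccactcaaag
Rank 8: catgcctactaagcggggagg
Rank 9: catgatccccgcccagaagta
Rank 10: catgcccattgtacttgaact

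The tags that led before birth are printed next. Together with rank 3 they had the 5 highest prenatal means, and only rank 3 of these 5 was also among the first 10 of the whole ranking.
Rank 11: catgtgcccctcctcgccagg
Rank 13: catgaaatgtgacattgatat
Rank 17: catgaccaaaaaccaaaagtg
Rank 25: catgccatCATGcgtctggat
The capitals in rank 25 mark a further CATG, a site at which NlaIII can cut again. It was the 1 tag of the 100 with a further site, against 3 of the next 100 tags in the ranking and 3.94% of all 801159 distinct tags. AATAAA, searched on the strand that is read, stood in 4 of the 100 tags, in 4 of the next 100 tags and in 1.58% of all distinct tags.

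The share of the library held by the 100 tags rose with age in both breeds. In LR it was 7.45%, 14.0%, 15.99%, 19.1% and 18.6% from 35 to 91 dpc and 21.2%, 35.9%, 39.9%, 40.2% and 36.6% from 2 to 180 dpn. In LT it was 8.29%, 10.6%, 12.9%, 13.8% and 14.2% before birth and 21.8%, 35.2%, 34.8%, 39.0% and 35.0% after it. The lowest of these 20 values, LR 35 dpc, had a 95% Wilson interval of 7.43% to 7.48%, and counting error was as small in the other libraries. Every postnatal library lay above every prenatal library, and the largest step between neighbouring stages in either breed was that from 2 to 28 dpn. The mean was 13.5% ± 3.90 (SD, n = 10 prenatal libraries) before and 32.9% ± 7.26 (SD, n = 8) after birth without LR 120 and 180 dpn. No test was made of these shares, since the tags were chosen for their abundance in the same libraries.

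The rank groups did not share equally in this. Ranks 1 to 10 took 1.84% ± 0.806 (SD, n = 10) of a prenatal and 13.5% ± 4.75 (SD, n = 8) of a postnatal library, a ratio of 7.36 of the means. In LR their share was 0.773% at 35 dpc, 3.23% at 91 dpc and 6.73%, 16.01% and 18.5% at the first 3 postnatal stages. The LT libraries gave 0.871% and 2.35% at 35 and 91 dpc and 6.09%, 14.3% and 12.9% at those 3 stages. Ranks 11 to 25 stood at 4.34% ± 1.64 before and 5.52% ± 1.02 after birth, a ratio of 1.27, and their ranges overlapped. Ranks 26 to 50 went from 3.06% ± 0.90 to 6.55% ± 0.986, with no overlap, and ranks 51 to 100 with overlap from 4.26% ± 0.688 to 7.27% ± 1.57 (SD, n = 10 and 8 throughout). The next 100 tags took 6.21% ± 0.626 before and 6.47% ± 0.601 after birth, a ratio of 1.04. The composition of the single libraries is plotted by rank group.

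**Figure D1:**
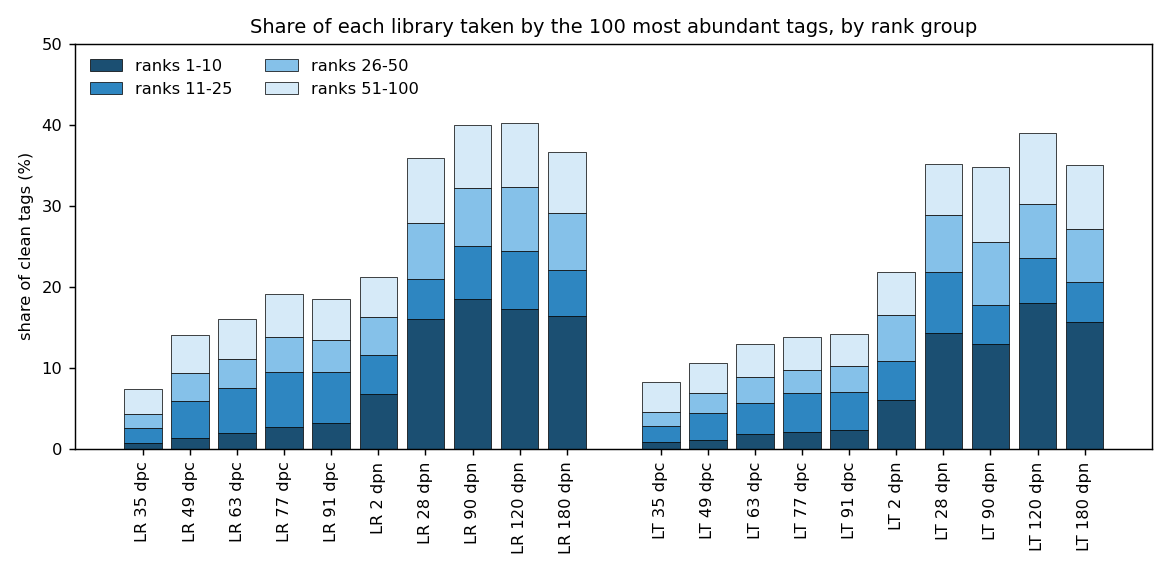
Share of the clean tags of each of the 20 libraries (%, vertical axis) taken by tags ranked 1 to 10, 11 to 25, 26 to 50 and 51 to 100, stacked from dark to light, with LR on the left and LT on the right. Ranks 1 to 10 grow from 0.773% of LR 35 dpc to 18.5% of LR 90 dpn, while ranks 11 to 25 stay between 1.84% and 7.55% in the 18 ranked libraries.

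Before birth the 100 tags took more of the LR than of the LT library at 49, 63, 77 and 91 dpc and less at 35 dpc. The mean of the 4 later prenatal stages was 16.9% ± 2.36 in LR and 12.9% ± 1.63 in LT (SD, n = 4 each). LR was the higher breed in 4 of 5 prenatal stage pairs for each of the 4 rank groups and for the next 100 tags as well. From 2 to 90 dpn the means were 32.3% ± 9.87 in LR and 30.6% ± 7.60 in LT (SD, n = 3 each), a difference far below the spread between stages.

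Different tags led before and after birth. By mean TPM, 58 of the 100 tags were at least 2-fold higher in the postnatal libraries, 16 were at least 2-fold higher in the prenatal libraries and 26 lay within 2-fold. The 58 postnatal tags included 9 of ranks 1 to 10, and they took 4.80% ± 2.40 of a prenatal and 27.3% ± 8.55 of a postnatal library (SD, n = 10 and 8). The 16 prenatal tags went the other way, from 4.26% ± 1.16 to 0.667% ± 0.377, and none of them stood among ranks 1 to 10. The 26 tags of both periods kept 4.43% ± 0.757 and 4.90% ± 1.49. At a limit of 10-fold, 24 tags were postnatal and 6 prenatal. Separate lists of the 100 highest tags of each period had 44 tags in common, which is 44 of 100 of either list, and 64 of the prenatal and 79 of the postnatal list were among the 100 tags described here.

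A single tag led most libraries of older animals, and before birth the leader changed more often in LT than in LR. Rank 1 was the most abundant tag of LR at 90, 120 and 180 dpn and of LT at 28, 120 and 180 dpn, with up to 6.74% of the clean tags (LR 120 dpn, 95% Wilson interval up to 6.77%). Rank 13 led LR from 49 to 91 dpc with 0.922%, 1.11%, 1.44% and 0.993% of the clean tags. In LT before birth the leaders were rank 10 at 35 dpc, rank 17 at 49 and 77 dpc, rank 3 at 63 dpc and rank 11 at 91 dpc, at 0.352% to 0.885%. Rank 37, catgatgagtgtaaagaaaat, led LR 35 dpc with 0.422%. At 2 dpn rank 3 led LR and rank 2 led LT, and rank 8 at LR 28 dpn and rank 6 at LT 90 dpn completed the list.

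Rank 1 was found at 1274, 2775 and 4834 TPM (lowest, median and highest of 10 prenatal libraries) and at 7709, 23850.4 and 45238 TPM in the 8 postnatal libraries. The periods did not overlap, and the postnatal mean was 8.23 times the prenatal mean. Rank 2 ranged from 112 to 6343 TPM with a median of 1449.7 before birth and from 9219 to 29305 TPM with a median of 20858 after it. Ranks 4, 5, 8 and 9 were also without overlap, with highest prenatal values of 3505, 2298, 954 and 2102 TPM and lowest postnatal values of 4278, 7748, 1525 and 3129 TPM. Ranks 6, 7 and 10 overlapped, through LT 2 dpn for ranks 6 and 7 and LT 90 dpn for rank 10. Rank 8 went from 1806 and 1525 TPM at 2 dpn to 24095 and 7421 TPM at 28 dpn in LR and LT.

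Rank 3 was the tag of the first 10 that lay within 2-fold between the periods. It was found at 3176, 4308 and 8846 TPM (lowest, median and highest of 10) before and at 2331, 7556 and 24807 TPM (of 8) after birth. Its course had a peak, at 18003 TPM in LR and 24807 TPM in LT at 28 dpn, and it was down to 2600 and 5398 TPM at 90 dpn. In the oldest LT animals it stood at 2358 and 2331 TPM, below every prenatal library.

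The prenatal leaders fell steeply after birth. Rank 13 was at 1822, 4838 and 14385 TPM (lowest, median and highest of 10) before and at 19.2, 154 and 1274 TPM (of 8) after birth, and the periods did not overlap. Rank 17 went from 3314, 5614 and 9063 TPM to 173, 596 and 1043 TPM, and rank 25 from 2194, 4288 and 6078 TPM to 20.1, 99.5 and 1238 TPM, also without overlap. Rank 11 kept a high level, at 2436, 5026 and 7122 TPM before and 623, 3534 and 9445 TPM after birth, and was highest at 28 dpn in LT.

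The counts of all tags were tested for a difference between the periods with edgeR, with breed as a covariate, and 37769 tags passed the low-count filter. Of all tags tested, 19.7% were called higher and 20.6% lower after birth at an adjusted p below 0.05. Of the 100 tags, 65 were called higher and 12 lower. A tag could enter the 100 through the period in which it was high, so that these counts describe the tags and support nothing more. The median log2 fold change was 2.09 over the 100 tags, 0.46 over the next 100 tags and -0.07 over all tags tested. Of the next 100 tags, 40 were called higher and 19 lower. When libraries were scaled by total clean tags, the median of all tags moved to -0.77, and calls among the 100 tags became 54 higher and 16 lower, while those of all tags went from 7441 higher and 7779 lower to 3563 and 15695. All of ranks 1 to 10 were called higher, and their log2 fold changes were 1.67 to 5.34. Rank 3 was the weakest, with 1.67 ± 0.505 (approximate SE) and an adjusted p of 0.0118, and its call was lost when 28 dpn was left out (0.81, adjusted p = 0.153), with scaling by total clean tags (0.94, adjusted p = 0.112) and with all 20 libraries (1.32, adjusted p = 0.0769).

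The largest changes upward were those of tags with prenatal means of 4.42 to 97.4 TPM. Their sequences are given because they gained most after birth.
Rank 41: catgtgatgtcaaggaaataa
Rank 53: catgctggatgctgagatccg
Rank 59: catggtggagcgcagagccaa
Rank 62: catgaccggtttaaagtcttc
Rank 100: catgcaatactggatttgtac
Rank 41 had 0 to 34.7 TPM before birth, with 0 counts in LR 77 dpc and LT 35 dpc. After birth it had 138, 5471 and 6155 TPM in LR at 2, 28 and 90 dpn and 18.1, 1881, 13629, 1989 and 347 TPM in LT from 2 to 180 dpn. The log2 fold change was 11.15 ± 1.54 (approximate SE, adjusted p = 1.29e-05 by edgeR), the postnatal values spread over more than 2 orders of magnitude, and the periods overlapped at LT 2 dpn. Its coefficient of variation over the 18 libraries, 214%, was the highest of the 100 tags, followed by rank 100 with 168%. Rank 53 had at most 227 TPM before birth and at least 912 TPM after it, and rank 59 at most 218 and at least 1494 TPM. Their log2 fold changes were 7.24 ± 1.18 and 6.62 ± 1.13 (adjusted p = 6.63e-05 and 0.000108 by edgeR). Both were already at 83.3 to 227 TPM at 91 dpc, above all earlier prenatal libraries. Ranks 62 and 100 had log2 fold changes of 5.68 ± 0.679 and 5.41 ± 0.686 (adjusted p = 3.73e-06 and 5.78e-06 by edgeR).

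Large changes downward belonged to ranks 90, 38, 13 and 25. Those not yet shown are the following.
Rank 38: catgaagatcaagattattgc
Rank 90: catgagctggaagaggccgag
Rank 90 went from 138, 1443 and 3803 TPM (lowest, median and highest of 10) before to 4.13, 17.6 and 483 TPM (of 8) after birth, and its highest postnatal value was that of LT 2 dpn. Its log2 fold change was -3.48 ± 0.905 (adjusted p = 0.00414 by edgeR). Those of ranks 38, 13 and 25 were -3.39 ± 0.682, -3.35 ± 0.647 and -3.27 ± 0.627 (adjusted p = 0.000499, 0.000345 and 0.000320 by edgeR). In LT, ranks 13, 25, 38 and 90 were all higher at 180 dpn than at 120 dpn, for example 412 against 19.2 TPM for rank 13.

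**Figure D2:**
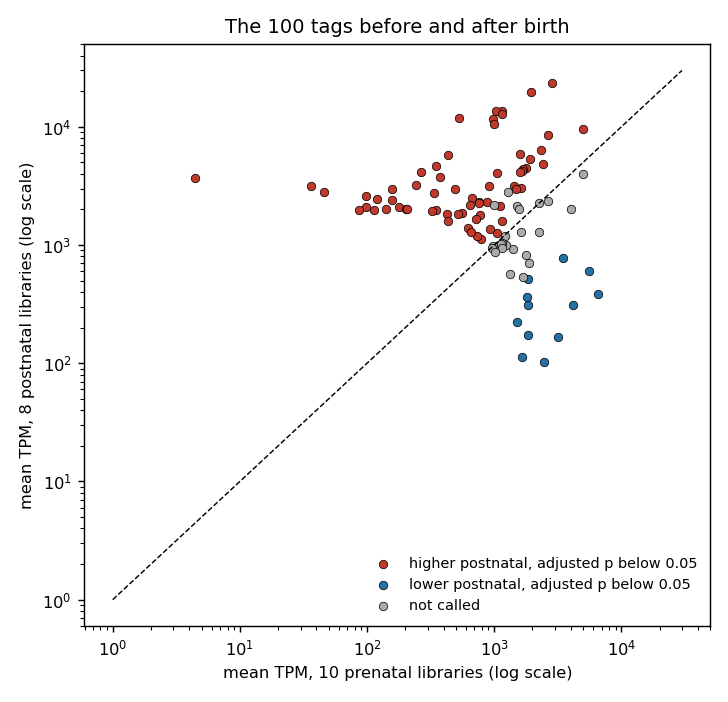
Mean TPM of each of the 100 tags in the 10 prenatal libraries (horizontal, log scale) and the 8 postnatal libraries (vertical, log scale), with red for the 65 tags called higher and blue for the 12 called lower after birth by edgeR and the dashed line for equal means. Rank 41 lies far left at 4.42 TPM before and 3704 TPM after birth, and most red points lie well above the line.

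The most even tags were ranks 24, 79 and 72. Rank 24, catggggtttttattattttt, had a coefficient of variation of 23.5%, with 2641 ± 591 TPM before and 2377 ± 602 TPM after birth (SD, n = 10 and 8). Rank 79, catgctgattggaactgtatt, and rank 72, catgattatttttgtaatctg, had 31.6% and 32.7%. Of their 17 bases after CATG, 3, 6 and 3 were G or C. The median coefficient over the 100 tags was 82.4%.

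At the limit of the set the mean TPM changed little. Rank 99, catggggctgcttttgtcaca, and rank 100 had 933 and 927 TPM over the 18 libraries, and the first tags outside it, catgctgagaaactgatgaag and catgacctattattcgtaaag, had 924 and 919 TPM. Of the 100 tags, 96 were found in all 18 ranked libraries and 92 in all 20.

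No pair among the 100 tags differed by 1 base, but 2 pairs differed by 2 or 3 bases, and in both pairs one tag led before and the other after birth. These pairs were picked out after the values had been seen. Capitals mark the bases that differ, and positions are counted from 1 at the C of CATG.
Rank 2: catgaagatcaagatCatCgc
Rank 38: catgaagatcaagatTatTgc
Rank 5: catgaaGtgCgacatCgatat
Rank 13: catgaaAtgTgacatTgatat
The differences fall at positions 16 and 19 in the first pair and at positions 7, 10 and 16 in the second, so that they are spaced by multiples of 3 bases. Rank 38 had 3164 TPM on average before and 167 TPM after birth, and rank 2 had 1950 TPM and 19661 TPM (means of 10 and 8). Rank 13 had 6582 and 387 TPM, and rank 5 had 1028 and 13499.6 TPM. The exchange took place at about the same age in both breeds. In LR rank 38 was above rank 2 up to 77 dpc, with 7096 against 4441 TPM, and below it from 91 dpc, with 5246 against 6343 TPM. In LT rank 38 was above rank 2 up to 77 dpc, with 1988 against 1275 TPM, and below it from 91 dpc, with 1454 against 1677 TPM. Rank 13 stayed above rank 5 up to 91 dpc in both breeds and was below it from 2 dpn, with 1274 against 7748 TPM in LR and 878 against 9749 TPM in LT. In LR the prenatal member of each pair was higher than in LT at 49, 63, 77 and 91 dpc, for example 14385 against 5007 TPM for rank 13 at 77 dpc. This was not particular to the prenatal members, as rank 2 was higher in LR at the same stages and rank 5 at 63, 77 and 91 dpc. None of these tags was among those called between the breeds before birth by edgeR.

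**Figure D3:**
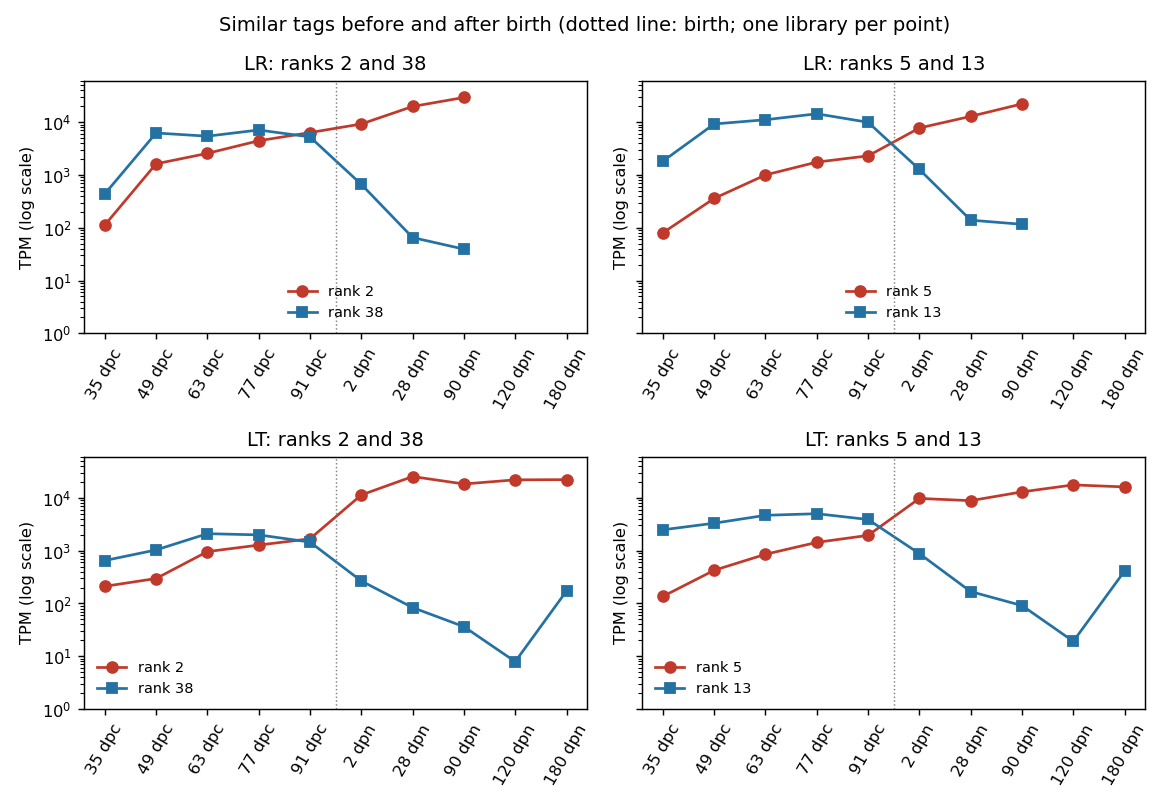
TPM (log scale) of ranks 2 and 38 (left) and ranks 5 and 13 (right) by stage in LR (above, without 120 and 180 dpn) and LT (below), one library per point, with the dotted line for birth. The prenatal tag of each pair crosses below the postnatal tag between 77 dpc and 2 dpn and reaches 7.92 TPM for rank 38 and 19.2 TPM for rank 13 at LT 120 dpn.

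Few of these tags were called different between the breeds by edgeR. Before birth 48619 tags were tested with stage as a block, and 3.49% of them were called higher in LT and 2.64% higher in LR. Of the 100 tags, 99 passed the filter, the exception being rank 41, and 4 were called higher in LT and 2 higher in LR. These shares are near those of all tags. An unadjusted p below 0.05 was reached by 44 of the 99 and by 17896 of all 48619 tags tested. The calls depended on single stages. Without 35 dpc, 56 were called, 16 higher in LT and 40 higher in LR, beside 13815 higher in LT and 11294 higher in LR of all 50615 tags tested. Without 49, 63, 77 or 91 dpc edgeR called none of the 100 and 750 to 891 of all tags, with an unadjusted p below 0.05 for 26 to 34 of the 100. In all 10 libraries DESeq2 called 38 (13 higher in LT and 25 higher in LR), beside 7233 higher in LT and 5002 higher in LR of all 48619 tags.

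The 6 tags called in the prenatal comparison are printed because they passed the limit on the adjusted p with all 10 libraries.
Rank 80, higher in LT: catgtccttcagtgctgacca
Rank 71, higher in LT: catgctttccatatgaggtat
Rank 84, higher in LT: catggcccgagactggcccga
Rank 23, higher in LT: catgttcgatcagactcagat
Rank 97, higher in LR: catgtgggcagccttccctcc
Rank 26, higher in LR: catgattcattacaattacat
Rank 26 had 907, 1026, 1978, 1719 and 2569 TPM in LR and 486, 382, 331, 486 and 725 TPM in LT from 35 to 91 dpc. The values of the breeds did not overlap. The log2 fold change of LT over LR was -1.80 ± 0.316 (approximate SE, adjusted p = 0.0161 by edgeR). Rank 97 had 31.6, 553, 1149, 1994 and 2095 TPM in LR and 23.3, 55.1, 476, 557 and 384 TPM in LT, a log2 fold change of -1.96 ± 0.458 (adjusted p = 0.0415 by edgeR). Its breeds overlapped, although LR was higher in each of the 5 stage pairs. A variant that differs in 1 base was abundant beside this tag in both breeds, and the sum of both was 1432 TPM in LR and 588 TPM in LT (means of 5).

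Rank 80 had 44.4, 22.2, 72.7, 160.3 and 210.1 TPM in LR and 33.5, 263, 703, 839 and 1117 TPM in LT from 35 to 91 dpc. LT was higher from 49 dpc on, and the log2 fold change was 2.25 ± 0.550 (adjusted p = 0.0464 by edgeR). Rank 84 had 4.96, 21.3, 61.0, 133 and 183 TPM in LR and 5.41, 182, 383, 522 and 543 TPM in LT, and rank 23 had 414, 317, 715, 1227 and 1627 TPM in LR and 645, 1726, 2474, 2991 and 3702 TPM in LT. Their log2 fold changes were 1.87 ± 0.421 and 1.38 ± 0.314 (adjusted p = 0.0375 and 0.0383 by edgeR). Rank 71 had 89.8, 267, 221, 544 and 478 TPM in LR and 1284, 1292, 799, 1061 and 1101 TPM in LT, without overlap (log2 fold change 1.90 ± 0.449, adjusted p = 0.0426 by edgeR). In LR a variant that differs in 1 base took a large share beside this tag, as given further on, and the sum of both was 549 TPM in LR and 1112 TPM in LT (means of 5).

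After birth no difference between the breeds was called by edgeR among the 100 tags over 2, 28 and 90 dpn, where 1.61% of 27369 tags tested were called in either direction. At an unadjusted p below 0.05 there was 1 tag, rank 94, catgaacacttgatgccgttt, chosen here after its value was seen, and DESeq2 called the same tag. The breed effect itself was compared between the periods over 16 libraries. None of the 100 tags was called by edgeR, and 0.0% of the 70867 tags tested were. An unadjusted p below 0.05 was reached by 13 of the 100 and by 10768 of all tags, and DESeq2 called 11 of the 100 and 2022 of all.

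LR 120 and 180 dpn were set beside LT of the same age without a test. The 100 most abundant tags of each library itself took 53.6% and 50.3% in LR and 43.2% and 38.4% in LT. Of these, 40 and 38 in LR and 68 and 67 in LT belonged to the 100 tags described here. The total share of the 100 tags described here was similar, with 40.2% and 36.6% in LR and 39.0% and 35.0% in LT, but its make-up was not. A group of 34 tags stood below 0.1 of the LT value at both ages and took 0.201% and 0.180% of the LR libraries against 16.2% and 15.9% of the LT libraries. Another 29 tags were higher in LR at both ages and took 34.1% and 30.9% against 14.4% and 11.5%. The other 37 tags took 5.88% and 5.50% against 8.35% and 7.55%. These groups were formed after the values had been seen. Over the 18 other libraries the 34 tags took 1.36% to 17.6%. At the other 8 stages no more than 3 of the 100 tags were below 0.1 of LT in LR.

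Rank 6 was the clearest of the first 10, at 8.75 and 6.36 TPM in LR and 17760.2 and 23905 TPM in LT at 120 and 180 dpn. Ranks 4, 5 and 9 were at 145, 86.0 and 171 TPM in LR and 16718, 17575 and 17610.1 TPM in LT at 120 dpn. All 3 had been at 15638 to 22162 TPM in LR at 90 dpn. Ranks 1, 2, 7 and 10 were higher in LR than in LT at both ages, rank 7 with 33086 and 40404 TPM against 15582 and 15255 TPM. Rank 8 was lower in LR at 120 and higher at 180 dpn, and rank 3 was lower in LR at both ages, at 623 and 756 against 2358 and 2331 TPM.

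The groups differed in sequence features that the rule had not used. The median GC content of the 17 bases was 52.9% in the 34 low tags, 35.3% in the 29 high tags and 47.1% in the other 37. All 4 tags with AATAAA (ranks 1, 22, 31 and 64) were among the 29, and rank 25, with its further CATG, was among the 34. Over all tags of a library, those with a further CATG made up 0.116% and 0.224% of LR 120 and 180 dpn and 2.14% to 3.80% of the other 18 libraries, and the part of this in the result was not tested. The loss was not particular to the first 100 tags, as 47 and 51 of the next 100 tags were below 0.1 of LT at 120 and 180 dpn, against 36 and 41 of the 100.

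**Figure D4:**
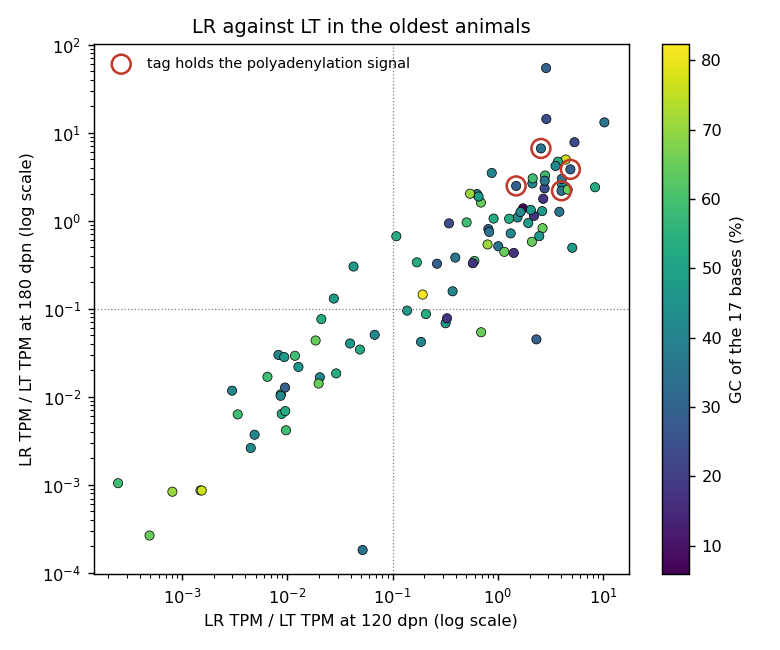
Ratio of LR to LT TPM at 120 dpn (horizontal, log scale) and at 180 dpn (vertical, log scale) for 95 of the 100 tags, coloured by the GC content of the 17 bases (%), with red rings for the 4 tags with AATAAA and dotted lines at 0.1. The 5 tags with 0 counts in either LR library are not drawn, and all 4 ringed tags lie above 1 on both axes. Of the 100 tags, 34 were below 0.1 and 29 above 1 at both ages, and the other 37 were in neither group.

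The tags at 0 in 1 or more of the 20 libraries were 8 in number. Among them, ranks 13 and 25 were at 0 in LR 120 and 180 dpn, where the LT values were 19.2 to 412 TPM. Ranks 41 and 53 were at 0 only before birth, rank 41 in LR 77 dpc and LT 35 dpc and rank 53 at 35 dpc in both breeds. Ranks 34, 45 and 71 were each at 0 in an LR library while abundant in LT. Rank 45, catgttctttatttgcctatt, was at 0 in LR 28 dpn and LR 180 dpn against 3579 and 3893 TPM in LT. Rank 71 was at 0 in LR 28 dpn against 1635 TPM, and rank 34 at 0 in LR 180 dpn against 2893 TPM.

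Each tag of 21 bases has 51 sequences that differ from it by 1 base after the CATG. All 51 were found for 64 of the 100 tags, and at least 46 for every tag. Over the 18 libraries these variants had a median of 3.01 counts per 100 counts of their tag (range 1.56 to 43.7), and the strongest single variant had a median of 0.456 per 100. The strongest variant stayed under 1 per 100 for 87 of the 100 tags and reached 5 per 100 for 6. These ratios pool counts over libraries, and the share in single libraries could be far larger. Of tag and variant counts together, the strongest variant of rank 4 (0.818 per 100) made up as much as 53.4% in LR and 59.7% in LT. For rank 84 (0.873 per 100) the mean share was 18.4% ± 26.7 before and 0.406% ± 0.0985 after birth (SD, n = 10 and 8). Both tags were chosen here after their values were seen. The variants of most tags shared a pattern. A to C was the strongest change in 58 tags and T to C in 27. Leaving out variants of 2 or more per 100, changes were counted per 1000000 reads of the base that changed. On this scale A to C was found 2048 times, T to C 1196 times and C to G, the rarest, 178 times. The rate of all changes at a position was 1174 per 1000000 tag counts at position 5 and 3115 at position 19. By library, the median over tags with at least 1000 counts was 2.28 to 3.92 per 100, except in LT 63 dpc with 5.52.

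The largest totals of variants belonged to ranks 97, 34, 94, 71 and 59, with 43.7, 36.9, 31.1, 26.8 and 16.5 per 100 counts. In each of them 1 variant made up most of the total, and without it the other variants came to 2.31 to 5.24 per 100. For 3 of the 5 the share of this variant differed between the breeds. Capitals mark the base that differs, and each change is written with the base of the tag first.
Rank 34: catgagcTgtcccatccctcg
Variant T8C: catgagcCgtcccatccctcg
Rank 71: catgctttccatatgaggTat
Variant T19C: catgctttccatatgaggCat
Rank 94: catgaacacttgatgcCgttt
Variant C17T: catgaacacttgatgcTgttt

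The variant share, its counts over those of the variant and the tag together, was compared between 8 LR and 10 LT libraries with a 2-sided exact permutation test. Of 1974 tags of at least 50 TPM tested, 2.68% had a share that differed between the breeds at an adjusted p below 0.05. Of the 100 tags it was 3, near that background, and in all 3 the share was higher in LR. The smallest p that 43758 assignments can give is 2.2853e-05.

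For rank 34, T8C made up 92.5%, 22.4%, 60.6%, 0.0699% and 36.9% of the pair in LR from 35 to 91 dpc and 71.5%, 99.98% and 66.0% from 2 to 90 dpn. In the 10 LT libraries it was 0.0344% to 0.159%. The mean was 56.2% ± 34.3 in LR and 0.0914% ± 0.0441 in LT (SD, n = 8 and 10, exact permutation p = 0.000183, adjusted p = 0.0106). The breeds overlapped through LR 77 dpc, where the variant had 4 counts and the tag 5719.

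For rank 71, T19C made up 88.3%, 13.1%, 49.3%, 1.03% and 30.4% in LR before birth and 66.5%, 100% and 56.8% from 2 to 90 dpn, against 0.228% to 0.571% in LT. The mean was 50.7% ± 34.7 in LR and 0.447% ± 0.104 in LT (SD, n = 8 and 10, exact permutation p = 2.2853e-05, the smallest possible, adjusted p = 0.00251). The breeds did not overlap. Ranks 34 and 71 followed each other across the LR libraries, both lowest at 77 dpc and both at or near 100% at 28 dpn. In LR 180 dpn, which was not in the test, they were at 100% and 99.7%, and in LR 120 dpn at 58.4% and 46.9%.

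For rank 94, C17T followed another course. It made up 5.80%, 60.5%, 64.3%, 27.0% and 65.2% of the pair in LR before birth and 91.4%, 75.6% and 88.3% from 2 to 90 dpn, against 0% to 0.133% in LT, where 0 counts in LT 90 and 120 dpn allow a share of up to 0.0986% and 0.0713%. The mean was 59.8% ± 29.5 in LR and 0.0659% ± 0.0429 in LT (SD, n = 8 and 10, exact permutation p = 2.2853e-05, adjusted p = 0.00251), without overlap. The sum of tag and variant was near in both breeds, at 1156 TPM in LR and 1321 TPM in LT before birth (means of 5) and 1393 and 1092 TPM from 2 to 90 dpn (means of 3). For rank 34 the sums were 1719 and 1634 TPM before birth and 4557 and 4679 TPM after it. Pools of 3 animals differ from stage to stage, and the share of alleles among the animals of a pool was not tested.

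**Figure D5:**
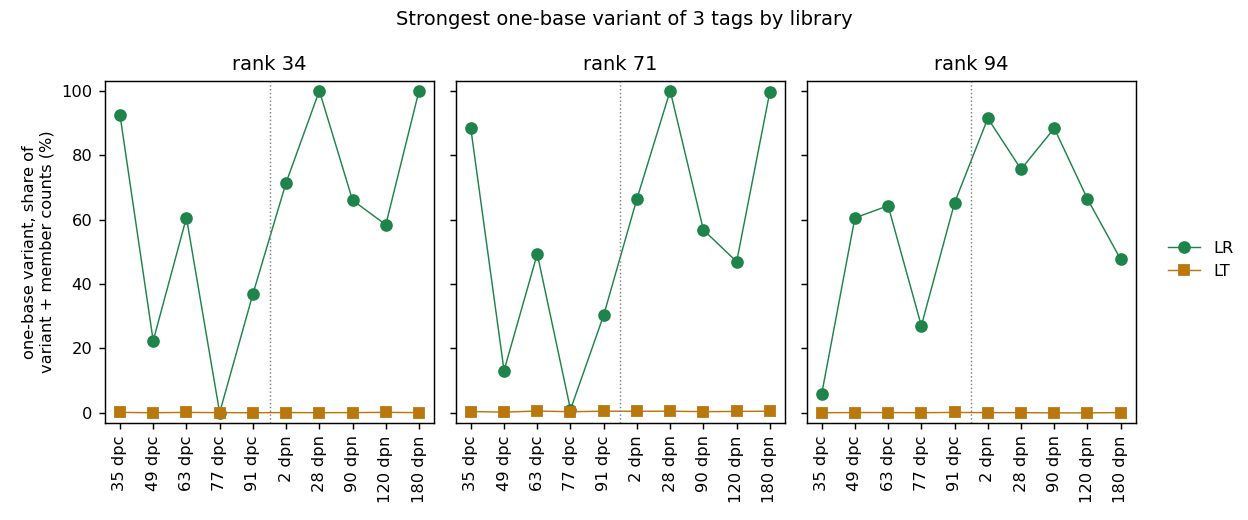
Share of the strongest one-base variant among variant and tag counts (%, vertical axis) for ranks 34, 71 and 94 by stage in the 20 libraries, with green circles for LR, orange squares for LT and the dotted line for birth. LT stays at or below 0.571% in every panel, while LR spans 0.0699% to 100% and has nearly the same course for ranks 34 and 71.

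In ranks 97 and 59 no difference of the variant share between the breeds was called. For rank 97, T19C stood at 19.7% ± 17.4 in LR and 33.5% ± 23.5 in LT (SD, n = 8 and 10, exact permutation p = 0.183, adjusted p = 0.948). For rank 59, G10A stood at 15.0% ± 22.6 in LR and 1.95% ± 3.37 in LT (SD, n = 5 and 9 libraries with at least 20 counts of the pair, exact permutation p = 0.0744, adjusted p = 0.724). At 91 dpc and 2 dpn it was at most 1.34% in either breed. Up to 77 dpc the tag had at most 53 counts in a library, too few to show whether the variant was absent. Where a share was given at these stages it was 0%, with upper limits of 5.66% to 9.38% if no read was seen. After 2 dpn the share was higher in LR than in LT at each stage, with 21.6% against 0.681% at 28 dpn and 51.9% against 9.04% at 90 dpn. At 120 and 180 dpn, which in LR were not in the test, it was 31.8% and 18.6% in LR and 6.41% and 0% in LT. The strongest variant of rank 2, C19T, was the same tag as the strongest variant of rank 38, T16C, since it lies between both, and it had 64.3 TPM on average before and 18.1 TPM after birth. Of rank 2 and this tag together it made up 6.98% ± 6.07 before and 0.105% ± 0.0598 after birth (SD, n = 10 and 8).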

How the data were processed

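Longissimus muscle of 20 pools of 3 pigs, 1 per breed and stage, was profiled by DGE. The authors removed adaptor, empty, low-quality and one-copy tags and deposited, per library, the count of each clean tag without normalization. Beside it the authors deposited TPM, the count per 1000000 clean tags. TPM was recomputed from the counts, with 0 for tags not listed. The submitters' processing notes name Bowtie 0.12.3 and NCBI36, which were not used here.

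The tags and the comparisons were chosen with earlier results of these data known. Named tags were ranks 1 to 10 and 99 to 102, the 5 highest of each period, leaders of single libraries, tags at 0, the 5 called tags of largest change per direction and test, the 5 of largest variant share, and the 3 most and least even. Some tags that met this rule are not reported here. Counts were tested over all tags with edgeR's quasi-likelihood test (edgeR 4.0.16, R 4.3.3), with TMM normalization, filterByExpr and Benjamini-Hochberg adjustment at 0.05, and DESeq2 1.42.0 was an alternative. Stages stand in for replicates. In the test between the periods, p-values measure the spread between libraries of a period. The tests of the breed effect, and of its difference between the periods, had stage as a block. Their p-values measure how the breed difference varies between stages. The permutation test had no stage term, and its units were the libraries of each breed. The standard error is the log2 fold change over the root of F. Variant shares were tested by exact permutation of libraries with at least 20 counts of the pair, taking the absolute difference of means (numpy 2.4.6), with 4 or more libraries per breed. The scripts were tested on simulated data. Shares of 1 library carry 95% Wilson intervals (scipy 1.17.1). Lists of genes and of cell type markers were not used, because tags were not matched to transcripts.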

Additional observations from a re-analysis of the deposited data

How the results depend on the processing

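Calls among the 100 tags between the periods were 60 to 66 higher and 10 to 15 lower under every alternative other than scaling by total clean tags, which gave 54 and 16. When only 2 to 90 dpn of both breeds were set against the prenatal libraries, an alternative chosen after seeing the data, they were 62 and 10. Of 360 repeats for the 20 tags chosen by rank or size of change none reversed and 3 lost the call, all of rank 3 (scaling by total clean tags, all 20 libraries, and without 28 dpn). The prenatal breed calls, 4 higher in LT and 2 higher in LR, became 13 and 25 with DESeq2 and 9 and 9 without the low-count filter, and with each stage left out they ranged from 0 to 16 and from 0 to 40. The cause was not tested. Of 60 repeats for the 6 called tags, 29 lost the call and none reversed. After birth DESeq2 called 1 tag higher in LT and none higher in LR, beside 352 and 429 of all 27369 tags tested. For the difference of the breed effect between the periods DESeq2 called 3 and 8 tags, and leaving out each stage gave 0 to 1 tag in one direction. The 1 tag was called without 35 dpc, where edgeR called 2288 of all 66453 tags tested. With any other stage left out it called none of all tags, so that this result depended on 35 dpc. The 3 variants that differed between the breeds stayed 3 with each stage left out, with parents of at least 100 TPM and with all 20 libraries, and a sign-flip test over 8 stage pairs without adjustment called 7 of 93 and 85 of all 1629 tags tested. Ranked by median TPM or by mean log2(TPM + 1), ranks 1 to 10 took 3.06% or 3.00% of a prenatal library in place of 1.84%, since 5 of the 10 tags were replaced, and 80 of the 100 remained. The other shares moved by less than 1 SD under these rankings, with one-base merging and with each stage left out. The median of variants per 100 counts was 2.51 without the strongest variant and 2.97 without LT 63 dpc, the latter chosen after seeing the data. LR and LT were paired by stage in the count tests between breeds and the sign-flip test, and beyond this no paired analysis was possible because each breed and stage had 1 library. Depth limited rank 41 before birth, where 8 of 10 libraries had 6 or fewer counts.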
